A study of Homo sapiens with 4 samples.

Results

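Processed pseudogenes are copies of messenger RNAs that were reverse transcribed and inserted back into the genome. Here they were followed in microglia-like cells (iMGL) grown from WTC11, a human iPSC line in wide laboratory use. A member was any gene of the GENCODE 29 type processed_pseudogene, outside the Y chromosome, whose estimated counts over the 4 libraries came to 40 or more. Of 10048 such genes in the files, 433 met the rule, 2749 had counts above 0 but under 40, and 6866 were listed at 0 in every library. The 433 stand among 15489 genes of any type with the same total. Of the 433, 228 carry a symbol that names a parent gene (174 different parents), 196 have only a clone name, and 9 have another symbol without a parent.

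The groups were 2 WT libraries, from cells without the edit, and 2 S1KO libraries, from cells edited to lack SHIP1, the inositol 5-phosphatase encoded by INPP5D. Both were differentiated with the same published iMGL protocol, and the RNA was poly-A selected and read as pairs of 150 bp. The series was made with 2 clones of each genotype, but the labels do not tie a library to a clone. The p-values below therefore measure the spread between these libraries.

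A processed pseudogene is made when the LINE-1 reverse transcriptase copies a spliced mRNA, so it has no introns, often ends in an A-rich stretch and lands away from its parent. It usually brings no promoter, and most copies accumulate mutations and are silent. When a copy is seen in RNA, it may be read from a promoter nearby or as part of a longer transcript that runs through it. Genes with abundant mRNA, such as those of ribosomal proteins, have left the most copies.

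Because a copy resembles its parent, how many of its bases differ decides whether a read can be told apart from the parent's. The following stretches of 90 nt show this for the 4 members that passed the test and for RPL22P1, a member seen in 1 library. Each copy is set over the coding part of the mRNA closest to it. Capitals mark the bases at which copy and mRNA differ. All are from GENCODE 29 transcripts (GRCh38), 5′ to 3′ on the strand of the copy. AC122718.1 (chr5:61375173-61375262, plus strand) is shown with FAM133B, NSRP1P1 (chr1:77847113-77847202, plus strand) with NSRP1, RPS14P4 (chr2:111295955-111296044, minus strand) with RPS14, and HMGB1P3 (chr2:230515034-230515123, plus strand) with HMGB1. RPL22P1 (chr3:169483874-169483963, minus strand) has no mismatch to RPL22 in its window, so 1 line stands for both.
AC122718.1: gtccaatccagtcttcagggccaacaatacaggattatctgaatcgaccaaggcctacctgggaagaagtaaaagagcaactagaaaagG
FAM133B mRNA: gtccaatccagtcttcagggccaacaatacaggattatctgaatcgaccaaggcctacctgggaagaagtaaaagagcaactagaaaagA
NSRP1P1: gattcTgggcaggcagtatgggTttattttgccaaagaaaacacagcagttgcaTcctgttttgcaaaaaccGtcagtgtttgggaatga
NSRP1 mRNA: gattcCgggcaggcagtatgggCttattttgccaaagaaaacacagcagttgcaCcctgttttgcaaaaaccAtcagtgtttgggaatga
RPS14P4: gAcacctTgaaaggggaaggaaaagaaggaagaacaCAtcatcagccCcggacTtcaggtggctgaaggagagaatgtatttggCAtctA
RPS14 mRNA: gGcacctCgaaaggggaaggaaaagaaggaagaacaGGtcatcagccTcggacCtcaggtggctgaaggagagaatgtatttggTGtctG
HMGB1P3: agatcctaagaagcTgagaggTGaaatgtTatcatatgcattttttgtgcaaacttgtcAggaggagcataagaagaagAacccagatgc
HMGB1 mRNA: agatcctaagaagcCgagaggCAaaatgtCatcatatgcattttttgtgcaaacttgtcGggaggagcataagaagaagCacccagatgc
RPL22P1: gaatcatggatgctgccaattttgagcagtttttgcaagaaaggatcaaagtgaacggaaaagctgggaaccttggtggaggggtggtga

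In its window AC122718.1 differs from FAM133B at 1 base, NSRP1P1 from NSRP1 at 4, HMGB1P3 from HMGB1 at 6 and RPS14P4 from RPS14 at 9. Over the full alignment AC122718.1 had 5 mismatches in 744 nt (99.3% identity, gaps left out), NSRP1P1 71 in 1662 nt (95.7%), HMGB1P3 42 in 615 nt (93.2%) and RPS14P4 50 in 406 nt (87.7%). RPL22P1 had 0 mismatches in 350 nt. All of these are single-exon models.

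The program used by the submitters, kallisto, assigns reads by k-mers, so for each member the share of its 31-mers found in no transcript of another gene in the files was counted, on GENCODE 29 sequences (own 31-mers). The median over the 433 was 84.9%, and 10 members had none. Own 31-mers made up 16.5% of AC122718.1, 75.5% of NSRP1P1, 10.9% of HMGB1P3, 30.9% of RPS14P4 and 22.9% of RPL22P1. For a member with few own 31-mers, reads may have to be divided among several genes. The share of own 31-mers is not the share of reads that can be told apart. For HMGB1P3, 544 of its 616 bases are also exon of SP100-201, a transcript of the gene it lies in. For the other members, RPS14P4 included, which genes share the remaining 31-mers was not determined, and they need not be the parent. Over the 408 members with a match to a coding transcript, the median identity of the best match was 88.7% (64.7% to 100%). Where a symbol names the parent and a match was found, the best match was that parent's transcript in 219 of 227 members. Member transcripts had a median length of 803 nt (162 to 9714).

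Levels are given as CPM, the share of a library's counts outside the mitochondrially encoded genes, scaled per 1000000. The libraries held 21516813 to 25927881 estimated counts, of which mitochondrial genes took 14.2% and 18.9% in WT and 52.3% and 39.2% in S1KO. Outside them, WT 1 and WT 2 kept 18461466 and 21028441 counts, and S1KO 1 and S1KO 2 kept 10866559 and 13571447. The S1KO libraries are therefore the shallower ones for all that follows. INPP5D, the edited gene, stood at 543 and 662 CPM in WT and at 111 and 154 CPM in S1KO, a log2 difference of -2.18 ± 0.24 (SE; edgeR adjusted p = 0.0376), in the direction of the labels. The 11 microglia markers checked summed to 5600 and 6195 CPM in WT and to 3568 and 4301 CPM in S1KO, and none was at 0. The 6 mesenchymal markers summed to 4840 CPM in WT 1 and to 3.74 to 29.1 CPM in the other libraries, so WT 1 stands apart. The 6 pluripotency markers summed to 11.0 and 18.3 CPM in WT and to 33.9 and 45.2 CPM in S1KO, with SOX2 at or under 0.148 CPM in every library. The microglia and pluripotency sums move with the genotype, as does the mitochondrial share, and the mesenchymal sum sets WT 1 apart from the other 3 libraries. Their part in the results below was not tested. In bulk RNA, fewer cells of a type and less RNA per cell cannot be told apart.

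The 433 members together took 986 and 1058 CPM in WT and 1876 and 2067 CPM in S1KO. Both S1KO sums lay above both WT sums, a 1.93-fold difference of the means. An exact two-sided permutation test gave p = 0.333, the smallest that 2 libraries against 2 allow. AC122718.1 took 337 and 241 CPM of the S1KO sums and 19.7 and 19.5 CPM of the WT sums. Without it the sums were 966, 1039, 1539 and 1827 CPM in WT 1, WT 2, S1KO 1 and S1KO 2. The typical member was low: the median over members was 0.983 and 1.10 CPM in WT and 1.53 and 2.01 CPM in S1KO. The processed pseudogenes under the threshold of 40 counts summed to 255 and 334 CPM in WT and to 287 and 352 CPM in S1KO, which overlap.

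Tested gene by gene with edgeR's quasi-likelihood test and adjusted by Benjamini-Hochberg over all 15489 genes, 4 of the 433 members were higher in S1KO (0.924%) and 0 were lower. Over all genes tested, 0.291% were called higher and 0.0258% lower. At an unadjusted p under 0.05, 132 members were higher and 9 lower, against 8.06% and 8.72% of all genes. DESeq2, run as an alternative, called 71 members higher and 2 lower, against 4.13% and 3.36% of all genes. In 212 members (49.0%) both S1KO libraries lay above both WT libraries, where 23.2% of all genes did. In 53 members (12.2%) both lay below, where 26% of all genes did. The median log2 fold change of the members was 0.76 (quartiles -0.21 and 1.86), with 300 of 433 above 0, and that of all genes was -0.06. The rule's total is taken over all libraries, so it admits members through the group in which they are high, and these counts and medians describe the set without supporting a shift. The median was 0.18 over the 224 members whose WT counts alone reach 40, and 1.48 over the 229 whose S1KO counts alone do. A further 19 members had an adjusted p between 0.05 and 0.1 in edgeR's test, all with higher values in S1KO. Genes of any type in that range were not counted, so this number and its direction have no background beside them.

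The number of calls changed with the libraries and the scale. Without S1KO 1 or without S1KO 2, edgeR called none of the members and no gene of any type. The log2 fold changes of the 4 members called on all libraries were then 4.01 and 4.62 (NSRP1P1), 3.62 and 4.11 (AC122718.1), 3.64 and 3.94 (HMGB1P3) and 3.32 and 3.38 (RPS14P4). Without WT 1, the library with mesenchymal markers, edgeR called 63 members higher and 6 lower, against 3.77% and 4.51% of all genes. All 4 were among them, with log2 fold changes of 3.31 (HMGB1P3), 3.41 (RPS14P4), 3.89 (AC122718.1) and 4.16 (NSRP1P1), and the median of the 433 was 0.83. Without WT 2 it called 70 higher and 2 lower, against 4.54% and 6.77% of all genes. With mitochondrial counts included in library size, edgeR called 37 members higher and 10 lower, against 0.994% and 12.4% of all genes. The median of the members was then 0.14 and that of all genes -0.68.

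The 4 members called higher had fold changes of 10.2 to 20.3. AC122718.1, a copy of FAM133B, stood at 19.7 CPM in WT 1, 19.5 in WT 2, 337 in S1KO 1 and 241 in S1KO 2. The groups lay far apart, and the log2 fold change was 3.88 ± 0.24 (SE; 95% interval 3.30 to 4.47; edgeR adjusted p = 0.0139). It is the most abundant of the 433. FAM133B itself, with which it shares most of its sequence, was at 83.7 and 87.2 CPM in WT and at 127 and 155 CPM in S1KO, a log2 difference of 0.72 ± 0.18 that did not pass the test (adjusted p = 0.168). The copy lies in an intron of ZSWIM6, on the same strand. ZSWIM6 was at 99.8 and 122 CPM in WT and at 58.0 and 64.6 CPM in S1KO (log2 fold change -0.85, adjusted p = 0.144), so host and copy differed in opposite directions. A second copy with FAM133B as its closest mRNA, FAM133DP, was picked after its values were seen. It stood at 0.0849 and 1.26 CPM in WT and at 20.9 and 14.8 CPM in S1KO.

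NSRP1P1 is a copy of NSRP1, a splicing regulator of nuclear speckles. It went from 1.53 and 2.01 CPM in the WT libraries to 43.9 and 28.6 CPM in the S1KO libraries, without overlap (log2 fold change 4.34 ± 0.35, adjusted p = 0.0243, edgeR). On the length-corrected TPM scale it was at 1.35, 1.75, 36.9 and 25.1 in WT 1, WT 2, S1KO 1 and S1KO 2, while the parent was at 62.8, 82.0, 149 and 173. Its counts came to 1.82% and 2.07% of the parent's in WT and to 26.2% and 15.8% in S1KO. NSRP1 was higher in both S1KO libraries as well, with a log2 fold change of 0.94 that did not pass the test (adjusted p = 0.109). MIGA1, in whose intron the copy lies on the same strand, had a log2 fold change of 0.34 that did not pass the test (adjusted p = 0.539).

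HMGB1P3 is a copy of HMGB1, a DNA-bending chromatin protein that also acts as an alarm signal outside cells. It was at 1.30 and 3.13 CPM in WT and at 34.3 and 27.9 CPM in S1KO (log2 fold change 3.80 ± 0.45, adjusted p = 0.0455, edgeR; 0.0654 with TMM scaling). HMGB1 was at 308 and 341 CPM in WT and at 281 and 288 CPM in S1KO, a log2 difference of -0.19. The copy lies within SP100, a gene for a nuclear body protein, and 544 of its bases are also exon of the transcript SP100-201. That transcript was at 12.3 and 10.5 CPM in WT and at 26.1 and 25.1 CPM in S1KO, so it too was higher in both S1KO libraries. Reads from the shared exon cannot be assigned to the copy or to SP100-201 by place. SP100 as a whole gene was at 190 and 218 CPM in WT and at 274 and 279 CPM in S1KO (log2 fold change 0.44, adjusted p = 0.293).

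RPS14P4, a copy of the small-subunit ribosomal protein gene RPS14, was at 1.43 and 1.31 CPM in WT and at 14.2 and 13.6 CPM in S1KO (log2 fold change 3.35 ± 0.37, adjusted p = 0.0343, edgeR). RPS14 overlapped between the groups, at 865 and 768 CPM in WT and 755 and 835 CPM in S1KO. Per length the copy stayed far below its parent, at 8.29 to 87.6 TPM against 1172 to 1550 TPM. RPS14P4 lies in an intron of the long non-coding gene MIR4435-2HG, on its strand.

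**Figure D1:**
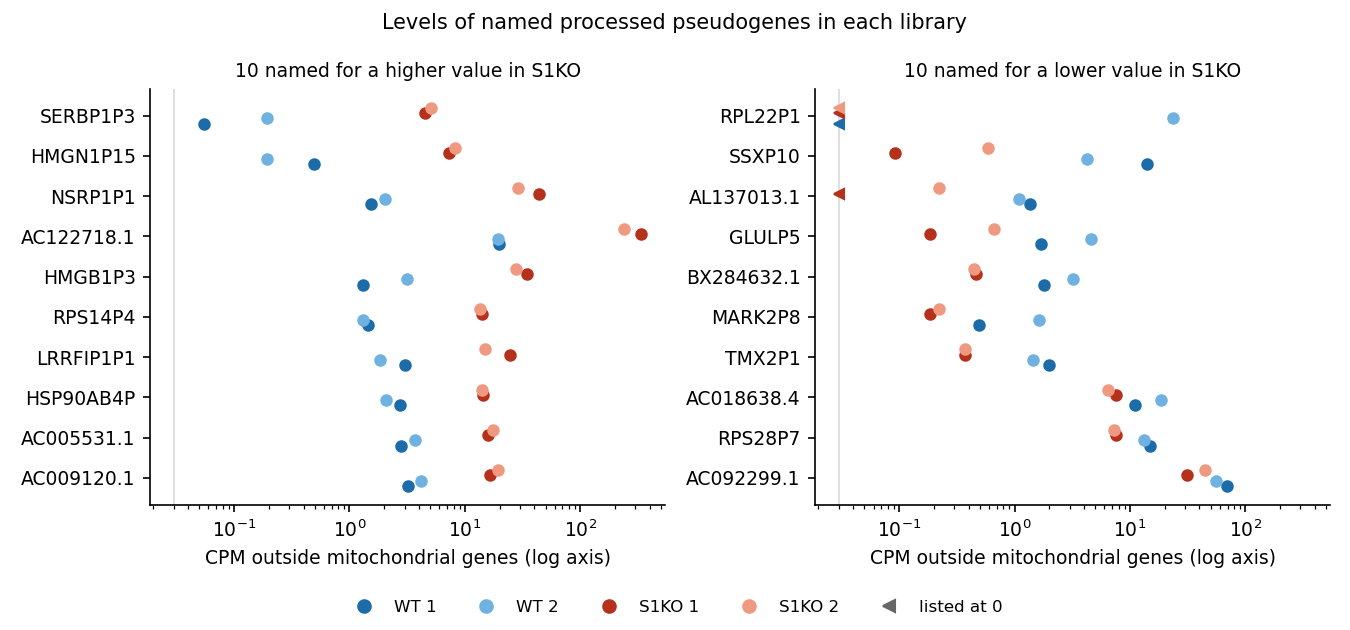
Level of 10 members with the strongest evidence for higher values in S1KO (left) and 10 for lower values (right), in CPM outside mitochondrial genes on a log axis, with 1 point per library and triangles for libraries listed at 0. On the left both S1KO points of every member lie to the right of both WT points, and 4 of these members (NSRP1P1, AC122718.1, HMGB1P3 and RPS14P4) passed edgeR's test; none on the right did.

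Further members had large differences without passing edgeR's test. SERBP1P3, a copy of the mRNA-binding protein gene SERBP1, was at 0.0546 and 0.192 CPM in WT and 4.55 and 5.05 CPM in S1KO (log2 fold change 5.17, adjusted p = 0.0762). HMGN1P15, a copy of the nucleosome-binding protein gene HMGN1, was at 0.491 and 0.192 CPM in WT and 7.32 and 8.24 CPM in S1KO (4.49, adjusted p = 0.0705). All 31-mers of HMGN1P15 are its own. EIF2S2P3, a copy of the gene for the beta subunit of translation initiation factor eIF2, was at 1.49 and 3.56 CPM in WT and 23.1 and 19.4 CPM in S1KO (3.08, adjusted p = 0.0808). HMGB1P21, with 0 counts in both WT libraries and 37 and 13 in S1KO, was at least 26.9-fold higher in S1KO against a floor of 3 counts over the WT group (edgeR adjusted p = 0.13).

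Members with lower values in S1KO were fewer, and none passed edgeR's test. SSXP10, whose closest mRNA is the cancer-testis gene SSX3, was at 14.1 and 4.22 CPM in WT and 0.0927 and 0.594 CPM in S1KO (log2 fold change -4.65 ± 0.96, adjusted p = 0.126). DESeq2 called it lower. The other member that DESeq2 called lower was RPL22P1, a copy of the large-subunit ribosomal protein gene RPL22, with 23.6 CPM in WT 2 and 0 in the other libraries including WT 1. All its 493 counts came from that 1 library, and WT 1 was at 0 like both S1KO libraries. RPS28P7, a copy of RPS28 with no own 31-mer, was at 15.0 and 13.3 CPM in WT and at 7.52 and 7.26 CPM in S1KO (log2 fold change -0.94, adjusted p = 0.216).

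Among the 10 most abundant members, NSRP1P1 was called beside AC122718.1, and the other 8 did not pass edgeR's test. CICP27, a copy of the gene for the transcriptional repressor CIC, was at 15.7 and 17.1 CPM in WT and at 39.0 and 51.6 CPM in S1KO (log2 fold change 1.47, adjusted p = 0.0809), and DESeq2 called it higher. AC092299.1 was at 68.9 and 55.3 CPM in WT and at 31.3 and 44.8 CPM in S1KO (-0.70 ± 0.25, adjusted p = 0.253). AL627309.6 was at 45.4 to 74.0 CPM over the 4 libraries. RPL23AP42 was at 40.3 to 52.3 CPM and RPS2P5 at 35.7 to 58.0 CPM, both with overlapping groups. RPL23AP42 and RPS2P5 match RPL23A and RPS2 at 99.6% and 98.7% and have 7.03% and 11.7% own 31-mers. Their log2 fold changes were 0.02 and -0.02, close to those of their parents, at 0.11 and -0.15.

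The members were grouped by the function of the parent. In the counts below, higher or lower means that both S1KO libraries lay on 1 side of both WT libraries, as 49.0% and 12.2% of the 433 and 23.2% and 26% of all genes did. No difference between families was tested. Of 48 copies of cytosolic ribosomal protein genes, 27 were higher in both S1KO libraries and 6 lower, and their median log2 fold change was 0.95. RPS14P4 was the 1 called. Their 28 different parents had a median of -0.08. RPL5P4, a copy of the gene for a large-subunit protein that binds 5S ribosomal RNA, was at 0.219 and 0.144 CPM in WT and at 3.15 and 4.69 CPM in S1KO (4.39, adjusted p = 0.0809), while RPL5 itself differed by 0.01. Of 13 copies of chromatin protein genes, 10 were higher and 2 lower (median 1.71), and 1, HMGB1P3, was called. HMGB1 alone accounts for 7 members, of which 6 were higher and 1, HMGB1P1, lower. HMGB1P6, the most abundant of them, was at 25.6 and 28.6 CPM in WT and 42.3 and 53.4 CPM in S1KO (0.82, adjusted p = 0.172).

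Copies of genes for RNA-binding and splicing proteins (12, median 0.67) were higher in 6 and lower in 2, and those for translation factors (10, median 0.69) higher in 4 and lower in 1. The 8 copies of cytoskeletal genes (median 1.04) were higher in 3 and lower in 0. KRT18P61, a copy of the simple-epithelium keratin gene KRT18, was at 0.546 and 0.911 CPM in WT and at 5.84 and 6.53 CPM in S1KO (3.07, adjusted p = 0.0961). Its parent KRT18 was at 35.2 and 20.3 CPM in WT and 15.7 and 13.7 CPM in S1KO, in the opposite direction and also without passing. Of 7 copies of nuclear respiratory chain genes (median 1.15), 4 were higher and 0 lower. The 8 chaperone and cyclophilin copies (median 0.30) were higher in 3 and lower in 1, the 4 glycolysis copies (0.42) higher in 1 and lower in 2, and the 3 proteasome and ubiquitin copies (-0.37) higher in 0 and lower in 1. The 2 copies in the family of RAS and small GTPases, RAB11FIP1P1 and RAB5CP1, had a median of -0.33, with 0 higher and 0 lower. The 104 copies of all other parents had a median of 0.15, with 39 higher and 16 lower. No ferritin copy and no copy of a listed myeloid or lysosomal gene was among the members.

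The copies of mitochondrially encoded genes are stretches of mitochondrial DNA in the nuclear genome that carry the same annotation type. All 6 were higher in both S1KO libraries (median 1.96), and their 5 parents had a median of 2.15. MTND4P12, a copy of the complex I subunit gene MT-ND4, was at 3.71 and 4.40 CPM in WT and at 21.0 and 11.5 CPM in S1KO. Its counts were 0.0150% to 0.0190% of those of MT-ND4 in every library, so copy and parent differed by a like factor. None of the 6 passed the test.

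Few members have parents tied to the starting stem cells. POU5F1P3, a copy of the pluripotency factor gene POU5F1, was at 1.15 and 1.77 CPM in WT and at 0.0927 and 0.594 CPM in S1KO, and its parent at 1.09 and 2.14 CPM in WT and 3.37 and 3.09 CPM in S1KO. Neither difference passed the test (log2 fold changes -2.02 and 0.98). The other member of this family, NANOGNBP3, is named for NANOGNB, a gene separate from the pluripotency factor gene NANOG. It was grouped here only because its parent's symbol begins with NANOG. NANOGNBP3 was at 0.109 and 0.575 CPM in WT and at 1.20 and 1.11 CPM in S1KO, in the opposite direction to POU5F1P3 (1.72, edgeR adjusted p = 0.409). The single copy with a cell cycle parent, CCNB3P1, was at 0.463 and 0.629 CPM in WT and at 3.14 and 4.41 CPM in S1KO (2.81, adjusted p = 0.136).

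Set against their parents gene by gene, the copies lay mostly above them in log2 fold change. Of 221 pairs in which both were tested, the pseudogene was above the parent in 146 (66.1%), with a median difference of 0.59. The 2 S1KO ratios of copy to parent both exceeded the 2 WT ratios in 94 pairs and both fell short of them in 29. Ratios between other genes were not counted for comparison. The rule's total admits copies through the group in which they are high, so these counts describe the pairs without supporting a shift. None of the 168 parents tested was called, and their median log2 fold change was -0.07, next to -0.06 for all genes. Of the 168 parents, 42 were higher in both S1KO libraries and 50 lower, where 23.2% and 26% of all genes were. Across the 215 pairs with a nuclear parent, the changes of copy and parent were almost unrelated (Pearson r = 0.08, Spearman rho = 0.10, across genes that share the same libraries). The copies were minor beside their parents: in WT 1 the median copy had 0.663% of its parent's counts (quartiles 0.139% and 3.28%).

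**Figure D2:**
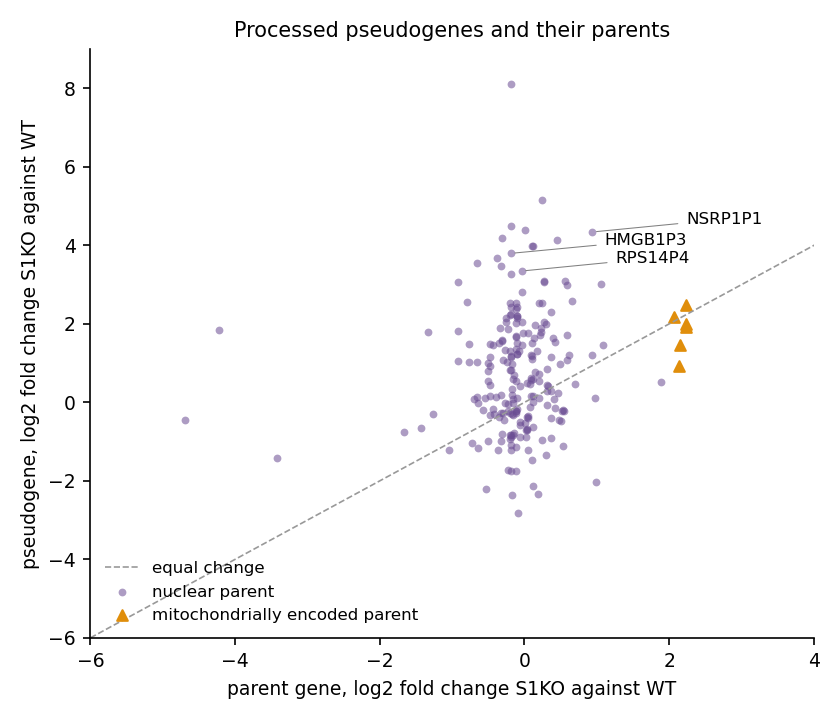
Log2 fold change (S1KO against WT) of each pseudogene, vertical, against its parent, horizontal, for the tested pairs. The dashed line marks equal change, and RPL22P1 lies below the axis. Nuclear parents cluster around 0 while their copies spread from below -2 to above 4, and the 6 mitochondrial copies (triangles) lie close to their parents. The top point is HMGB1P21, whose fitted value rests on 0 counts in WT.

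In some pairs the parent differed more than the copy. B3GALNT1, a glycosyltransferase gene, was at 6.68 and 4.90 CPM in WT and at 0.556 and 0.0743 CPM in S1KO, while B3GALNT1P1 was at 0.983 and 0.815 CPM in WT and at 3.15 and 3.34 CPM in S1KO. PDLIM1, a cytoskeletal adaptor gene, was at 21.8 and 3.74 CPM in WT and 0.278 and 0.668 CPM in S1KO, with its highest level in the WT library that also carries mesenchymal markers. Its copy PDLIM1P4 was at 0.675 to 2.36 CPM with overlapping groups. None of these 4 genes passed the test.

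Where a copy sits in the genome was not part of the rule, but the rule's total was applied in every class. Each class therefore also admits members through the group in which they are high, and the values below describe the classes without supporting a shift. Each place refers to the host gene chosen for a copy, by strand before exon. A copy in an intron class may therefore touch an exon of another gene. Between genes means outside coding, lincRNA, antisense and processed-transcript genes. Of the 433, 134 lie within another gene in an intron on that gene's strand, 96 in an intron on the opposite strand, 153 between genes, and 30 and 20 touch an exon of another gene on the opposite or the same strand. Those in same-strand introns had a median log2 fold change of 1.42, with 86 (64.2%) higher in both S1KO libraries and 4 (2.99%) lower. Those in opposite-strand introns had a median of 0.51, with 40 (41.7%) higher and 15 (15.6%) lower. Those between genes had a median of 0.65, with 74 (48.4%) higher and 21 (13.7%) lower. The opposite-strand exon class (median 0.05, 7 higher and 8 lower) and the same-strand exon class (median -0.34, 5 and 5) were centred near 0 or below. The difference between the classes was not tested. Members in same-strand introns also had lower WT medians, at 0.710 and 0.821 CPM, against 1.05 and 1.20 CPM for all other members. The library preparation is not stated to keep strand, so a read from the opposite strand would count alike.

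**Figure D3:**
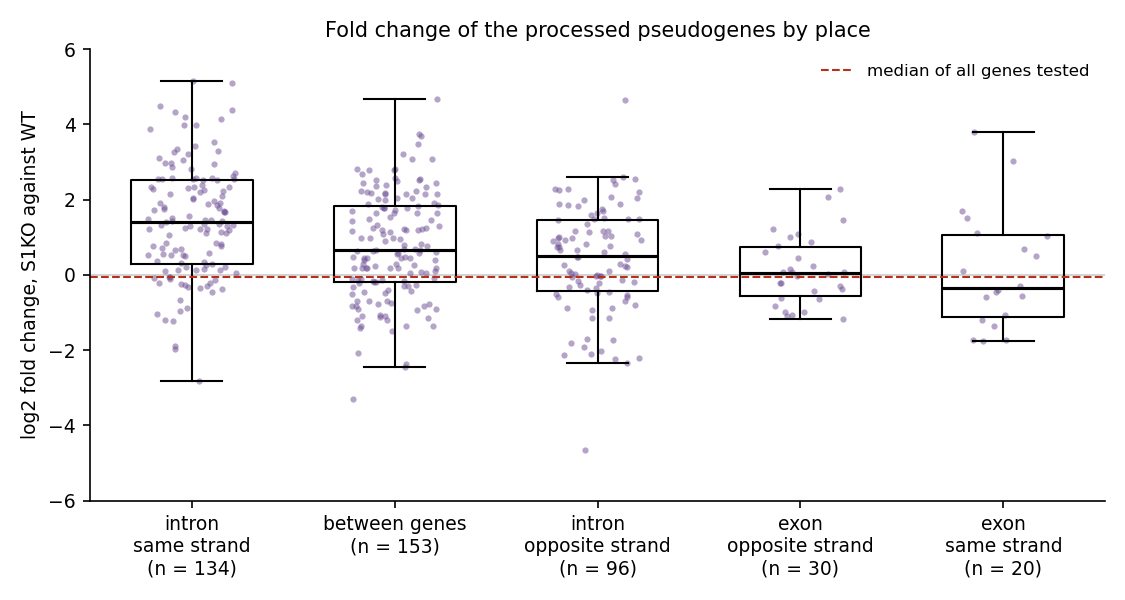
Log2 fold change (S1KO against WT) of the members by where they lie relative to other genes, with 1 point per pseudogene, boxes for the quartiles, whiskers to the last point within 1.5 box lengths, and the median of all tested genes as a dashed line. The class in same-strand introns has its median at 1.42, and 2 members lie outside the axis.

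Of the 4 called members, 3 lie in same-strand introns (AC122718.1, NSRP1P1 and RPS14P4), as do 12 of the 19 with an adjusted p between 0.05 and 0.1. The 134 summed to 215 and 286 CPM in WT and to 847 and 857 CPM in S1KO. Without AC122718.1 the sums were 195, 266, 510 and 616 CPM in WT 1, WT 2, S1KO 1 and S1KO 2, still without overlap. The sums of opposite-strand intron copies were 208 and 179 CPM in WT and 249 and 272 CPM in S1KO, and those between genes 384 and 410 against 522 and 652 CPM.

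**Figure D4:**
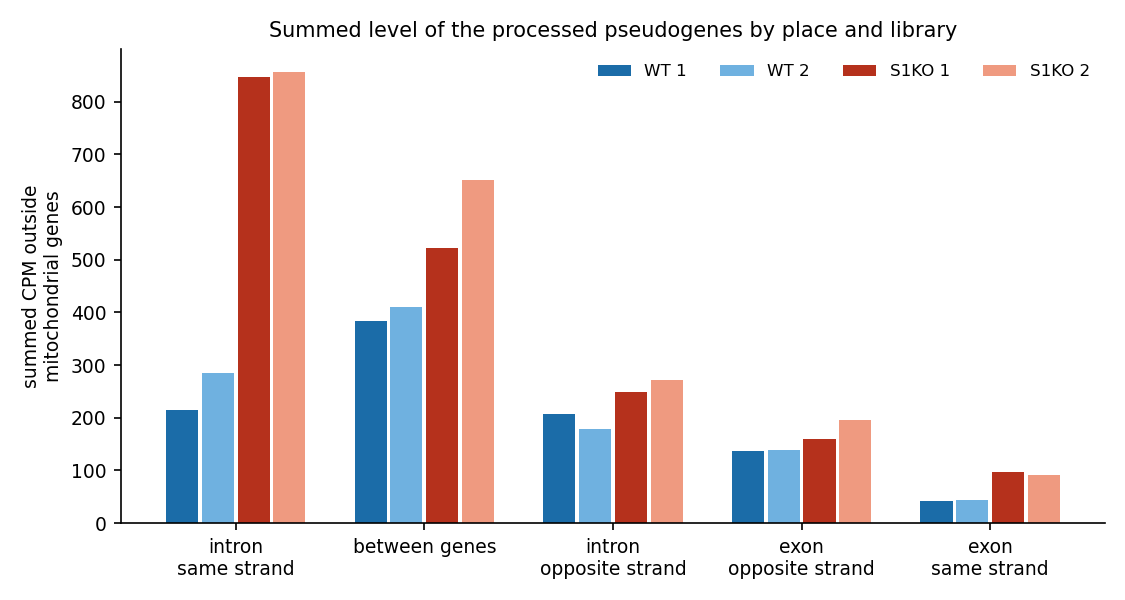
Summed CPM outside mitochondrial genes of the members in each class of place, with 1 bar per library. In every class both S1KO bars are taller than both WT bars, and the gap is widest for copies in same-strand introns (215 and 286 against 847 and 857 CPM), of which AC122718.1 takes 337 and 241 CPM in S1KO.

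The host genes were centred near 0. Among the hosts of same-strand intron copies, 109 were tested, with a median of -0.05 on the log2 scale, and edgeR called none. Copies in coding hosts (120, median 1.38) and in non-coding hosts (14, median 1.69) were alike in direction. With only copies of 90% or more own 31-mers, the 64 in same-strand introns had a median of 1.38 (38 higher, 3 lower), and the 36 in opposite-strand introns had a median of 0.04 (13 higher, 6 lower). The share of nuclear protein-coding counts that kallisto gave to transcripts annotated as retaining an intron was 10.4% in WT 1 and 11.9% in WT 2. It was 7.47% in S1KO 1 and 10.5% in S1KO 2, with overlapping groups. This share covers annotated transcripts only, not host RNA over the introns that hold these copies. Whether host RNA adds to the values of the copies was not tested.

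The members were also divided by how well they can be told from other genes. The 180 members with 90% or more own 31-mers had a median log2 fold change of 0.81 (90 higher, 20 lower). The 155 with 50% to 90% had one of 1.11 (90 and 12), and the 98 below that 0.15 (32 and 21). As shares these were 50% and 11.1%, 58.1% and 7.74%, and 32.7% and 21.4%, against 23.2% and 26% of all genes. In 190 members the estimated counts were whole in every library (within 0.001), which is how kallisto reports a gene whose reads it did not have to divide. These had a median of 0.64 (87 higher, 28 lower), summing to 301 and 332 CPM in WT and 470 and 599 CPM in S1KO. None of the 190 was called by edgeR. DESeq2 called 28 higher and 1 lower, against 4.13% and 3.36% of all genes.

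Values also differed with the total count, which itself holds the S1KO counts, so class and fold change are linked. Members with totals of 40 to 100 counts (253) had a median of 0.66, those with 100 to 300 (126) 0.91 and those with 300 or more (54) 1.34. Protein-coding genes of the same totals had medians of 0.01 (1344 genes), 0.05 (1833) and -0.08 (11191). The members next to the threshold include RPL7L1P10 (15, 10, 2 and 13 counts in WT 1, WT 2, S1KO 1 and S1KO 2) just inside, and CYCSP28 (2, 4, 9 and 24 counts) just outside. The related type of transcribed processed pseudogenes (123 genes) had a median of 0.35, with 56 higher and 19 lower, and the copies made by DNA duplication, unprocessed (104) and transcribed unprocessed (352), had medians of 0.04 and 0.05.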

How the data were processed

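The files hold kallisto results on hg38, per the submitters' processing notes (its version and its transcript index: not given in the sources used here). Per the file headers, the authors deposited for each transcript an estimated count, which kallisto divides among compatible transcripts, and a TPM value, with 1 file per library. Transcripts were summed to genes of GENCODE 29, 169797 by identifier and 15322 by a unique symbol, and 3634 were left out (0.330% to 0.671% of the counts of a library). Gene sums were rounded, and library size was the count outside mitochondrially encoded genes, with no further factor. Genes with 40 or more counts were fitted with edgeR 4.0.16 (functions glmQLFit, then glmQLFTest; two-sided; R 4.3.3) on genotype alone, adjusted by Benjamini-Hochberg at 0.05, after the script was tested on simulated data. TPM was rescaled over transcripts outside mitochondrial genes before it is printed. Summed levels were compared with an exact permutation test (SciPy 1.17.1).

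The closest mRNA came from blastn 2.17.0 (e-value 1e-10, at least 100 nt) against GENCODE 29 transcripts. A member's place was taken from that annotation, relative to the host gene chosen for it. Hosts could be protein-coding, lincRNA, antisense or processed-transcript genes. Where several overlapped a member, a host on the same strand came first, then a coding host, then a host whose exon was touched. Members that touched an exon of this host were placed in its exon and others in its intron. Members without such a host were placed between genes.

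Members, families of parents and marker lists were chosen with earlier results of these data known. Named were INPP5D, the 4 members called higher with non-overlapping libraries filled to 10 by p, 10 members with the smallest p in the lower direction, the 10 most abundant, up to 3 of each family, and the 5 members furthest above and below their parent with 100 or more counts in both. Members not covered by this (FAM133DP, HMGB1P21, HMGB1P1, and those next to the threshold) were chosen after their values were seen.

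Alternatives were TMM scaling, all counts as library size, DESeq2 1.42.0, filterByExpr, no filter, a minimum of 100 counts, edgeR's legacy setting off, the replicate number as a block, limma 3.58.1 on log2(TPM + 1) and log2(TPM + 0.1), and each library left out. Chosen after the data were seen were members with 50% or more own 31-mers, with whole counts, without copies matched by symbol, without mitochondrial copies, and without AC122718.1.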

Additional observations from a re-analysis of the deposited data

How the results depend on the processing

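Of the 433 members, edgeR called 4, and 3 with TMM scaling, 5 with the legacy setting off and 4 among members of 100 or more counts. It called 47 with all counts as library size (154 higher and 1923 lower over all genes), 15 with filterByExpr (101 and 15) and 79 with no filter (606 and 941). DESeq2 called 73 (640 and 521), and limma 21 on log2(TPM + 1) (94 and 5) and 30 on log2(TPM + 0.1) (114 and 7). Among members with 50% or more own 31-mers edgeR called 1, and among those with whole counts 0, where DESeq2 called 28 higher and 1 lower, and edgeR had 55 higher and 4 lower at an unadjusted p under 0.05. Leaving out each library gave 0 to 72 calls, with 0 members and 0 of all genes called without S1KO 1 and without S1KO 2; the remaining library is then assumed to vary like the other group. With the replicate number as a block edgeR called 16 (127 higher and 58 lower over all genes). Deviations of same-numbered libraries correlated at 0.02 over 14371 genes. This cannot decide whether the numbers pair the libraries, because WT 1 also stands apart by its mesenchymal markers.

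The median log2 fold change was 0.76, and 0.14 with all counts, 0.49 with limma on log2(TPM + 1), 1.06 among members of 100 or more counts and 0.98 with 50% or more own 31-mers. Over the 224 members whose WT counts alone reach 40 it was 0.18, and over the 229 whose S1KO counts alone do 1.48. It ranged from 0.48 to 0.93 with a library left out. The log2 ratio of the summed levels was 0.95, and 0.33 with all counts, 0.76 over members with whole counts and 0.75 without AC122718.1; the range with a library left out was 0.88 to 1.02. No median or sum changed sign. The count of pairs with the copy above its parent was 130 to 160 with a library left out. The cause of these shifts was not tested. The median member was at 0.983 to 2.01 CPM. Of the 253 members with totals under 100 counts edgeR called 0, and DESeq2 called 11 higher and 0 lower. Among all genes DESeq2 called 4.13% higher and 3.36% lower. Of the 1344 protein-coding genes with the same totals, it called 9 higher and 11 lower.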
